A study of Mus musculus with 4 samples.

Results

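The genes described here are 31 transcription factors, endocytic receptors and secreted products of the extraembryonic endoderm, named by symbol and chosen from levels and from the comparison with doxycycline in these same libraries. Of the 31, 30 were found by symbol among the 21822 gene units of the count tables. The RefSeq identifier of Apoc2, a cofactor of lipoprotein lipase, was not matched to a symbol, so no value is given for it. Of the 30, 29 passed the filter on low counts and 1, Cer1, a secreted inhibitor of Nodal, BMP and Wnt signals made by the anterior visceral endoderm, had 0 counts in every library. Because levels and the doxycycline comparison chose the genes, both are given as a description and support nothing further.

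The libraries came from inducible motor neuron embryonic stem cells (iMN-ESCs), a mouse line of C57BL/6 background that makes, when given doxycycline (Dox), a fusion of the LIM-homeodomain factors Isl1 and Lhx3. All cells carried the transgene. Suspension culture took 2 days in stem cell medium with LIF, then 2 days with all-trans retinoic acid at 0.5 µM. A last stage of 2 to 3 days kept the retinoic acid and either left out Dox (2 libraries, "no Dox") or added it at 2 µg/mL (2 libraries, "Dox"). Cells that lack the transgene but received Dox were not analysed here, so the drug and the fusion cannot be told apart. The number of lines, the purity of the aggregates and the sorting of cells were not given in the sources used here.

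RNA was sequenced in bulk and counted per exon part of each gene, with 24020832 to 53903936 counts per library. Counts were divided by library size and scaled between libraries to CPM, and levels of different genes are compared only as CPM per kb of exon. A read over several parts may be counted in each. This may raise CPM per kb and ranks in genes of many short parts, and it was not corrected. Isl1 rose from 3.08 and 5.83 CPM without Dox to 104 and 82.4 CPM with Dox, and Lhx3 from 0.404 and 0.286 to 125 and 108 CPM, so the Dox libraries held the RNA that their labels name. Over 14283 genes tested the median log2 fold change was -0.01, and 175 genes were called higher and 8 lower with Dox.

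The primitive endoderm is the layer of the early embryo that separates from the epiblast and lies against the blastocyst cavity. It gives rise to the parietal endoderm, which lays down a thick basement membrane of laminin and collagen IV, and to the visceral endoderm, which takes up nutrients by endocytosis and secretes lipoproteins and other plasma proteins, work that the liver later takes over. GATA and SOX factors set up the lineage, while FOXA factors and HNF4A act in the visceral layer. Retinoic acid is a classical inducer of endoderm in embryonal carcinoma and stem cell aggregates.

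The lineage transcription factors were abundant. Gata4, a zinc finger factor of both endoderm layers, stood at 560.0 and 591 CPM without Dox, against 553 and 644 CPM with Dox. Its mean of 174 CPM per kb ranked 169 among 21099 genes with an exon length. Sox7, an HMG-box factor of the primitive and parietal endoderm, stood at 232 and 241 CPM without Dox, against 196 and 233 CPM with Dox. The Dox libraries of both genes overlapped those without Dox.

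Gata6, which directs cells of the blastocyst to the primitive endoderm, measured 145 and 201 CPM without Dox, against 172 and 236 CPM with Dox. Sox17, another HMG-box factor of the lineage, measured 92.7 and 109 CPM without Dox, against 86.8 and 86.0 CPM with Dox. Sox17 was lower in both Dox libraries than in either other library, by 0.23 on the log2 scale with a 95% interval of -0.53 to 0.08. Per kb of exon the order was Gata4 (174), Sox7 (68.3), Gata6 (58.2) and Sox17 (30.0 CPM per kb), and the libraries of Sox7 and Gata6 overlapped.

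The factors of the visceral layer were lower. Foxa2, a forkhead factor of the anterior visceral endoderm, definitive endoderm and floor plate, measured 47.8 and 67.2 CPM without Dox, against 48.0 and 70.2 CPM with Dox, a mean of 27.4 CPM per kb. Hnf4a, the nuclear receptor that the visceral endoderm needs for its secreted proteins, measured 19.6 and 16.6 CPM without Dox, against 17.8 and 16.7 CPM with Dox. Foxa1, a close relative of Foxa2, measured 7.93 and 8.36 CPM without Dox, against 6.63 and 7.30 CPM with Dox. Hnf4a and Foxa1 came to 4.06 and 2.37 CPM per kb, ranks 9391 and 10411. All 7 factors had a 95% interval of the log2 fold change that lay between -1 and 1.

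**Figure D1:**
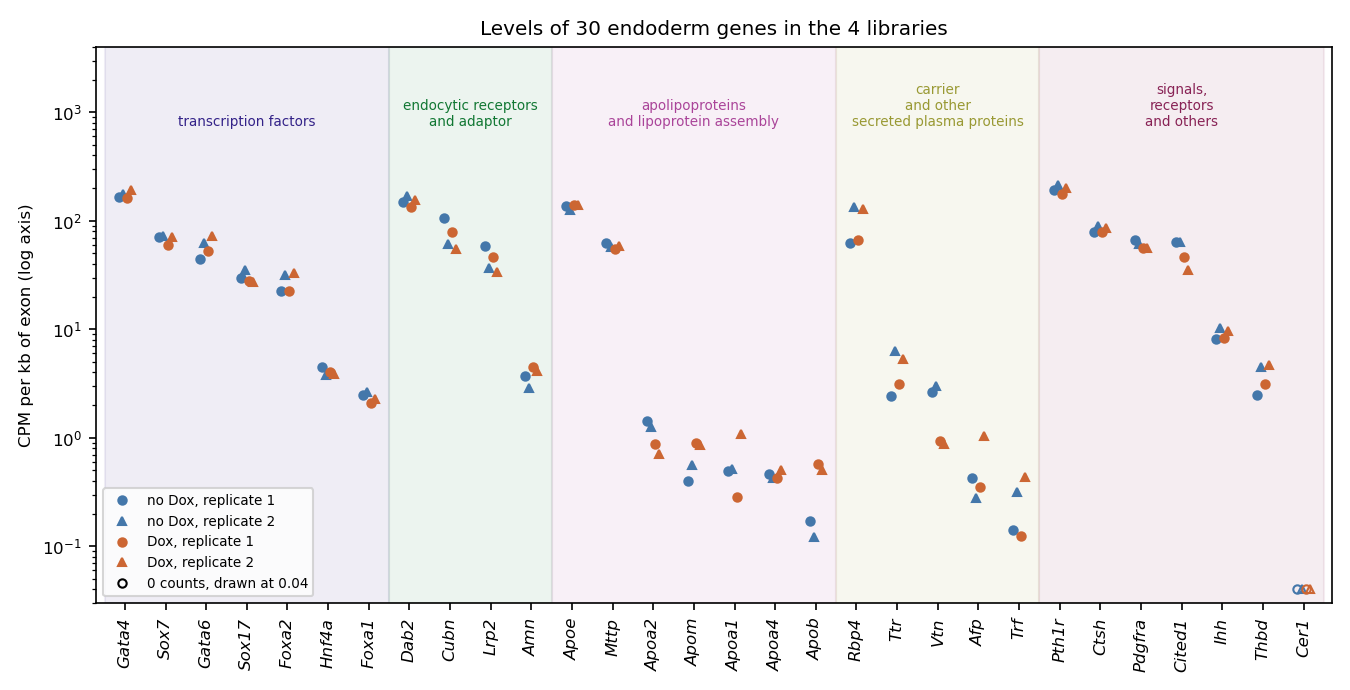
CPM per kb of exon (log axis) of the 30 genes found, in each of the 4 libraries, grouped by role; circles are replicate 1, triangles replicate 2, blue without and orange with Dox. Pth1r, Gata4, Dab2 and Apoe lie above 100 in every library, while Apoa2, Apom, Apoa1, Apoa4, Apob, Afp and Trf lie between 0.123 and 1.42 and Cer1 is at 0.

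The endocytic machinery of the visceral endoderm followed. Cubn, the large receptor cubilin that binds many ligands of the yolk sac, measured 1184 and 691 CPM without Dox, against 889 and 619 CPM with Dox. Lrp2, its partner megalin, measured 909 and 566 CPM without Dox, against 721 and 523 CPM with Dox. In both genes replicate 2 was the lower library of each group, and the groups overlapped. Dab2, the adaptor that links such receptors to clathrin, measured 705 and 809 CPM without Dox, against 647 and 745 CPM with Dox. Per kb of exon Dab2 (152) stood above Cubn (75.1) and Lrp2 (44.0 CPM per kb).

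Amn, the membrane protein amnionless that carries cubilin to the cell surface, was far lower. It measured 6.35 and 4.86 CPM without Dox, against 7.70 and 6.95 CPM with Dox, higher in both Dox libraries, with a log2 fold change of 0.38 and a 95% interval of -0.16 to 0.93. Cubn and Amn form 1 receptor complex, and the ratio of Cubn to Amn in CPM per kb was 28.2 and 21.5 without Dox and 17.4 and 13.4 with Dox. The ratio was lower in both Dox libraries than in either library without Dox, and lower in replicate 2 of each group. Neither gene was called, Amn had 119 to 380 counts per library, and the ratio was not tested. Among all genes tested the groups did not overlap in 38.8%.

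Among the lipoprotein genes, 2 of the 7 found were at high levels. Apoe, an apolipoprotein made by many tissues, measured 191 and 177 CPM without Dox, against 196 and 199 CPM with Dox (135 CPM per kb, rank 279). Mttp, the transfer protein that loads lipid onto apolipoprotein B, measured 275 and 252 CPM without Dox, against 240.5 and 257 CPM with Dox (58.0 CPM per kb). The other 5 were at 0.343 to 1.07 CPM per kb. Apoa1, Apoa2, Apoa4 and Apom, which encode proteins of high density lipoproteins and chylomicrons, had 73 to 121 counts each over the 4 libraries.

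Apob, the scaffold protein of lipoproteins that Mttp loads, was low and was the 1 member called higher with Dox. It measured 2.39 and 1.71 CPM without Dox, against 8.05 and 6.97 CPM with Dox. Both Dox libraries lay above both others, with a log2 fold change of 1.87 (SE 0.26, 95% interval 1.24 to 2.49, edgeR). Per kb of exon it remained at 0.500 to 0.578 with Dox, against 54.5 to 58.2 for Mttp in the same libraries. In those libraries the 13 liver markers summed to 41.9 and 28.1 CPM, against 38.9 and 33.6 without Dox. Of the 13, 11 were under 1 CPM per kb, 7 had 0 counts in every library, and only 2 passed the filter. Alb had 0 or 1 count per library. The 12 markers of definitive endoderm and gut summed to 112 and 82.0 CPM with Dox and to 157 and 140 without, most of it Sox2, a gene also of neural progenitors. The other 11 summed to 19.5 and 19.4 CPM with Dox and to 28.1 and 27.5 without. The part of other cell types in the Apob difference was not tested.

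Rbp4, the plasma carrier of retinol, was the 1 abundant gene among the carriers. It measured 77.0 and 164 CPM without Dox, against 81.3 and 158 CPM with Dox, so replicate 2 was the high library of each group and the groups overlapped. Ttr, transthyretin, the partner of Rbp4 in plasma, measured 2.86 and 7.43 CPM without Dox, against 3.69 and 6.35 CPM with Dox, again with replicate 2 high. Per kb of exon Rbp4 came to 97.5 and Ttr to 4.29. Afp, alpha-fetoprotein, a defining product of the visceral endoderm, had 24 and 14 counts without Dox and 27 and 118 with Dox, or 0.525 CPM per kb. Trf, transferrin, was at 0.255 CPM per kb, and it shares 2108 bases of exon on the same strand with the predicted gene Gm20425, so its reads are uncertain.

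Vtn, vitronectin, an adhesion protein of plasma and matrix, was the 1 member called lower with Dox. It measured 4.59 and 5.26 CPM without Dox, against 1.63 and 1.52 CPM with Dox. Both Dox libraries lay under both others, with a log2 fold change of -1.64 (SE 0.24, 95% interval -2.24 to -1.05, edgeR). Vtn is also made by floor plate and by pericytes. The 9 floor plate markers summed to 123 and 78.1 CPM without Dox, against 69.8 and 51.5 CPM with Dox. Of the 9, 6 were under 1 CPM per kb, and 0 of the 5 tested were called. Shh stood at 1.69 and 2.04 CPM without Dox, against 1.07 and 1.56 CPM with Dox. The part of floor plate and pericytes in the Vtn difference was not tested.

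Of the signals and surface proteins, Pth1r was the most abundant of all 30 genes per kb of exon, at 196 CPM per kb and rank 130. This receptor for parathyroid hormone and its related peptide measured 539 and 599 CPM without Dox, against 494 and 567 CPM with Dox. Pdgfra, the receptor tyrosine kinase that marks primitive endoderm and also mesenchyme, measured 467 and 425 CPM without Dox, against 389 and 392 CPM with Dox. It was lower in both Dox libraries, by 0.19 on the log2 scale (95% interval -0.49 to 0.11). The 11 mesenchymal markers summed to 55.2 and 72.7 CPM without Dox, against 192 and 165 CPM with Dox. Of the 9 tested, 3 were called higher and 0 lower, beside 1.23% and 0.056% of all genes tested. The part of mesenchymal cells in the Pdgfra values was not tested. Ctsh, a lysosomal cysteine protease, measured 128 and 145 CPM without Dox, against 128 and 140 CPM with Dox, with a log2 fold change of -0.03 (95% interval -0.33 to 0.27).

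Cited1, a transcriptional co-regulator found in visceral endoderm, measured 70.1 and 70.3 CPM without Dox, against 51.0 and 38.1 CPM with Dox. Both Dox libraries lay under both others, with a log2 fold change of -0.66 and a 95% interval of -1.05 to -0.26. It was not called by edgeR and was the largest difference among the 21 members whose mean reached 5 CPM. Ihh, the hedgehog ligand of visceral endoderm, measured 20.3 and 25.5 CPM without Dox, against 20.6 and 23.6 CPM with Dox. Thbd, thrombomodulin, an anticoagulant receptor of parietal endoderm, trophoblast and endothelium, measured 9.28 and 16.7 CPM without Dox, against 11.6 and 17.3 CPM with Dox, with replicate 2 high in each group.

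Across the 5 role groups, 15 of the 30 genes reached 10 CPM per kb, 7 were under 1, and 8 stood within the first 1000 of 21099 ranks. Over all 21099 genes with an exon length 32.3% reached 10 CPM per kb, and 48.4% of those tested. By role the members that reached it were 5 of 7 transcription factors, 3 of 4 endocytic genes, 4 of 7 signals and surface proteins, and 3 of the 12 lipoprotein and carrier genes found (Apoe, Mttp and Rbp4). Levels chose the genes, so these counts describe the choice. In bulk RNA, fewer cells of a type and less RNA per cell cannot be told apart, so no level gives a share of cells.

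The label was compared with wider lists of endoderm genes. Parietal endoderm and basement membrane genes stood highest. Of 16 such genes, 15 reached 10 CPM per kb and 14 ranked within the first 1000, with Sparc first (3568 CPM per kb), Col4a1 second (3503), Col4a2 at rank 3 and Lamb1 at rank 7. Their median was 408 CPM per kb. Of 65 secreted and surface genes of the visceral endoderm found, 24 reached 10 CPM per kb and 28 were under 1, with a median of 1.88. Those at the top were the lysosomal proteases Lgmn (578) and Ctsl (520), and then Clu (225) and Mfge8 (177 CPM per kb), which are made in many cell types, while Alb had 2 counts over all libraries. Of 16 further transcription factors 6 reached 10 CPM per kb, among them Snai1 (40.1) and Sall4 (29.9 CPM per kb). The median of these factors was 1.55 CPM per kb.

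Levels within the name primitive and visceral endoderm were uneven, and since levels chose the members they do not test it. Most member transcription factors and endocytic genes reached 10 CPM per kb, but not Hnf4a (4.06), Foxa1 (2.37) or Amn (3.80). Of the 16 further transcription factors 8 were under 1 CPM per kb. The basement membrane genes are not members and were listed for the parietal layer. Among plasma proteins of visceral endoderm, Afp, Ttr, Trf, Apoa1, Apoa2 and Apoa4 lay at 0.255 to 4.29 CPM per kb. Cer1 was at 0. With Dox, 0 of the 16 parietal, 0 of the 49 tested visceral and 0 of the 15 tested transcription factor genes of these wider lists were called by edgeR, beside 1.28% of all genes tested. At an unadjusted p under 0.05 edgeR gave 0, 13 and 1, but the share of all genes at that threshold was not worked out. DESeq2 called 0, 5 and 1 after adjustment, beside 398 higher and 113 lower of 15251 genes. Limma-voom called 0 in each, beside 169 higher and 12 lower of 14283 genes. Their median log2 fold changes were 0.07, -0.10 and 0.00, beside -0.01 over all genes tested. In the visceral list the values ran from -1.78 to 2.40, and 26 of the 49 had a 95% interval between -1 and 1.

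Over the mean of the 4 libraries the median was 18.3 CPM per kb for the 30 endoderm genes, against 18.8 for 18 neural progenitor genes and 12.0 for 18 neuronal genes. The order against progenitors differed by library. The ratio of the member median to the progenitor median was 0.621 and 1.06 in no Dox replicates 1 and 2 and 0.916 and 1.54 in Dox replicates 1 and 2, so members lay above progenitors in both replicate 2 libraries and below in both replicate 1 libraries. The ratio to neurons was 1.28 and 2.11 without Dox, and 1.42 and 2.21 with it. Sox2 and Pax6, factors of neural progenitors, stood at 48.2 and 38.1 CPM per kb (ranks 1469 and 2023), and Tubb3, a neuronal tubulin, at 35.5 (rank 2216). Gata4, Pth1r, Dab2, Apoe and Rbp4 each had a higher mean than any of these 3. Pax6 and Tubb3 were named after their values were seen, and they are not the highest genes of their lists. In the neuronal list 1 gene, not named here, ranked within the first 1000. Vim, an intermediate filament of progenitors and many other cells, had the highest mean of the progenitor list, at 324 CPM per kb. The member median falls in a wide gap between Foxa2 (27.4) and Ihh (9.11), so it says little of any gene. The order of the medians also rested on the length scale. The mean over the 4 libraries of the ratio to neurons was 1.76 per kb and 0.883 in CPM without division by length. That of the ratio to progenitors was 1.04 and 0.940. From the largest part of each gene per its own length the ratios were 0.330 and 0.299, but over only 25 members. The parts of Pth1r, Dab2, Rbp4, Pdgfra and Mttp, all above the member median, had no matched length. These 2 values thus reflect a changed set of genes as well as the length scale.

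**Figure D2:**
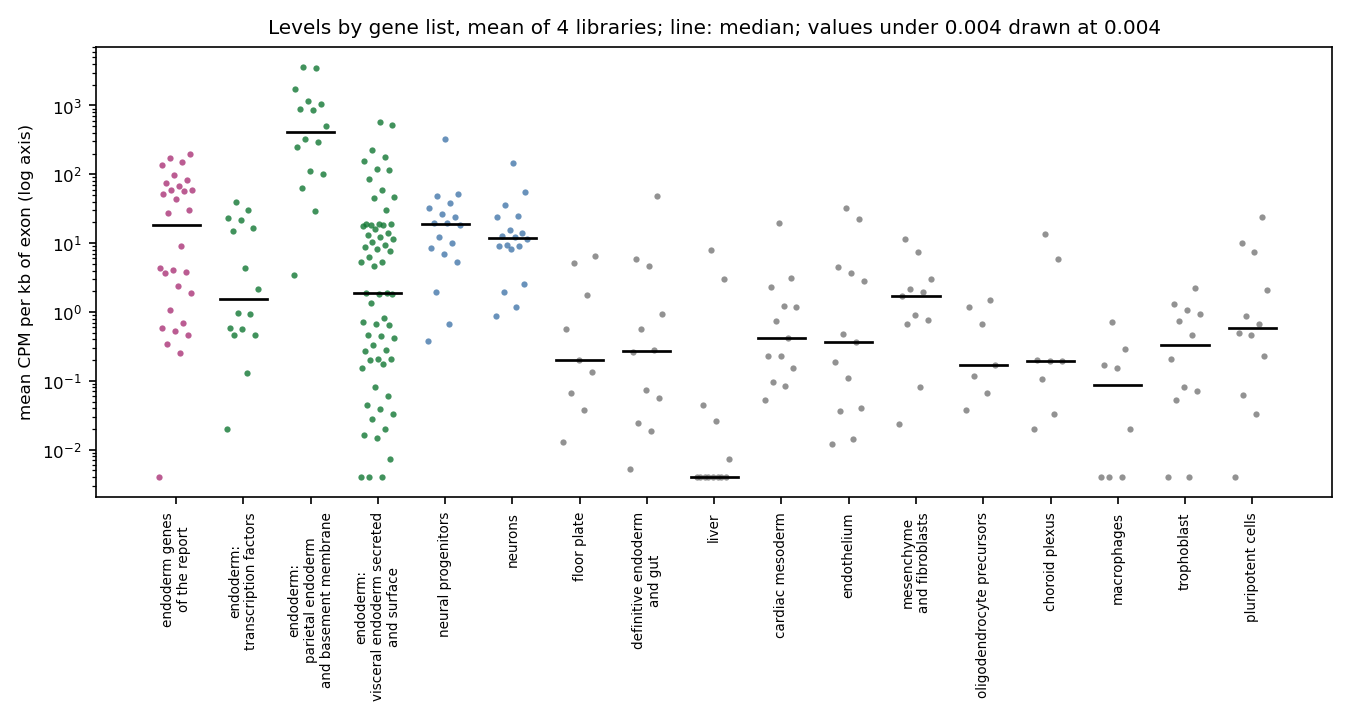
Mean CPM per kb of exon over the 4 libraries (log axis) for each gene of the lists, 1 point per gene, with a line at the median; values under 0.004 are drawn at 0.004. The endoderm genes of the report (median 18.3) and the neural lists (18.8 and 12.0) lie between the parietal and basement membrane genes (408) and the markers of other cell types, whose medians are 0 to 1.69. The other endoderm lists, of transcription factors and of visceral secreted and surface genes, have medians of 1.55 and 1.88.

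Markers of other cell types that share some of these genes were low. Medians were 0.198 CPM per kb for floor plate, 0.270 for definitive endoderm and gut, 0 for liver, 0.415 for cardiac mesoderm, 0.370 for endothelium, 1.69 for mesenchyme, 0.192 for choroid plexus, 0.171 for oligodendrocyte precursors, 0.337 for trophoblast, 0.587 for pluripotent cells and 0.0876 for macrophages. Some single markers were not low. Flt1, which endothelium and trophoblast express, stood at 32.8 CPM per kb, while Pecam1, a defining endothelial gene, stood at 0.189. Sox2, which also marks neural progenitors, was the 1 gene of the definitive endoderm and gut list at 10 CPM per kb or more.

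Of 29 members tested with Dox against no Dox, 1 was called higher (Apob) and 1 lower (Vtn), beside 1.23% and 0.056% of all 14283 genes (1.28% in either direction). The 2 groups of libraries did not overlap in 10 of 29 members, 4 higher (Apob, Apoe, Apom and Amn) and 6 lower (Sox17, Foxa1, Apoa2, Vtn, Pdgfra and Cited1), beside 18.9% higher, 19.9% lower and 38.8% in all among the genes tested. The median log2 fold change of the 29 was -0.03. Because the comparison chose the genes, these counts are a description.

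How closely a member was bounded depended on its level. The 95% interval of the log2 fold change lay between -1 and 1 for 18 of 29 members, beside 75.5% of all genes. At a mean of 5 CPM or more this was so for 17 of 21 members (81.0%), beside 91.5% of 10892 genes, and under 5 CPM for 1 of 8 members (12.5%), beside 24.2%. The 4 of the 21 outside these bounds were Cubn (-1.04 to 0.41), Ttr (-1.21 to 1.17), Rbp4 (-1.06 to 1.04) and Cited1 (-1.05 to -0.26). For Afp the interval ran from -0.47 to 2.48, and without Dox replicate 2 its log2 fold change fell from 1.01 to 0.01. Apoa1 and Trf, at 0.48 and 0.34, turned to -0.80 and -0.84 without that library.

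**Figure D3:**
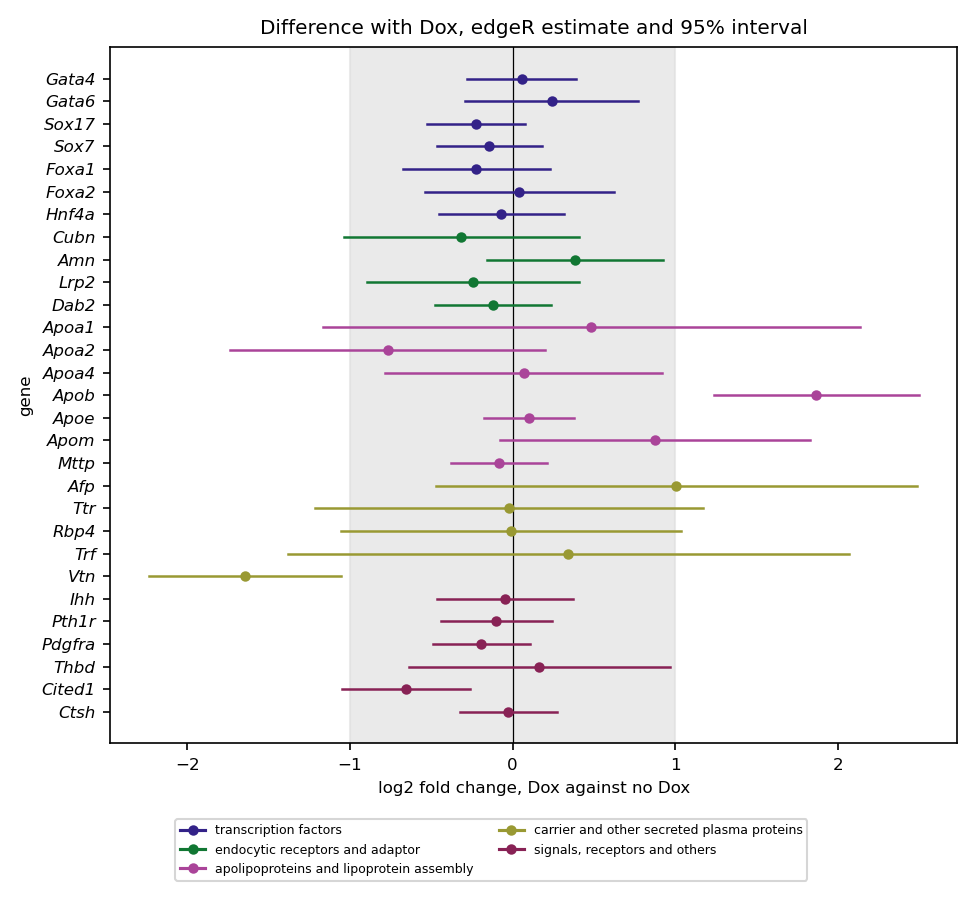
Log2 fold change with Dox against no Dox of the 29 genes tested, with the 95% interval from edgeR, coloured by role; the grey band marks -1 to 1. The values of Apob (1.87), Vtn (-1.64) and, just past the edge, Afp (1.01) lie outside the band, and the widest intervals are those of Apoa1, Trf, Afp and Ttr.

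Several members differed more between the replicates of a group than between the groups. The log2 ratio of replicate 2 to replicate 1 was 1.09 without and 0.96 with Dox for Rbp4, 1.38 and 0.78 for Ttr, 0.84 and 0.57 for Thbd, 0.49 and 0.55 for Foxa2, and 0.47 and 0.46 for Gata6. It was -0.78 and -0.52 for Cubn and -0.68 and -0.46 for Lrp2. Of 29 members 20 had the same sign in both groups. The medians over members were 0.08 and 0.14, beside 0.01 and 0.00 over all genes, -0.31 and -0.37 over neuronal genes and 0.11 and 0.26 over parietal and basement membrane genes. The secreted protein Clu, of the wider visceral list, went with Rbp4, at 214 and 513 CPM without Dox, against 287 and 616 CPM with Dox.

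Counts also lay nearer the 3′ end of genes in replicate 2. The genes compared were 6937 with at least 4 parts, parts matched to exons, and 200 counts per library. Their median share of counts in the last part was 28.6% and 36.5% in no Dox replicates 1 and 2, and 29.6% and 34.2% in Dox replicates 1 and 2. The share was larger in both replicate 2 libraries than in both replicate 1 libraries in 83.7% of these genes, and in 7 of the 8 members among them, all but Apoe. Among all 18 members with several parts and at least 200 counts in every library, it was larger in 13. The exceptions were Apoe, Cited1, Foxa1, Foxa2 and Rbp4. In Rbp4 the share was 21.4% and 22.9% without Dox and 19.7% and 20.3% with Dox. In Cubn the share was 3.29% and 7.74% without Dox and 3.83% and 6.90% with Dox, and in Lrp2 it was 8.02% and 19.1% without and 9.84% and 16.8% with Dox.

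Cubn (11262 bases of exon), Lrp2 (15460) and Apob (13934) are the longest members, and all 3 were lower in replicate 2 of each group. Over the 29 members the Pearson correlation of log2 exon length with the replicate ratio was -0.42 without and -0.30 with Dox, beside -0.37 and -0.25 over 14049 genes. These points share their libraries, and genes are not independent replicates. The part of 3′ coverage in the ratios of single members was not tested.

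**Figure D4:**
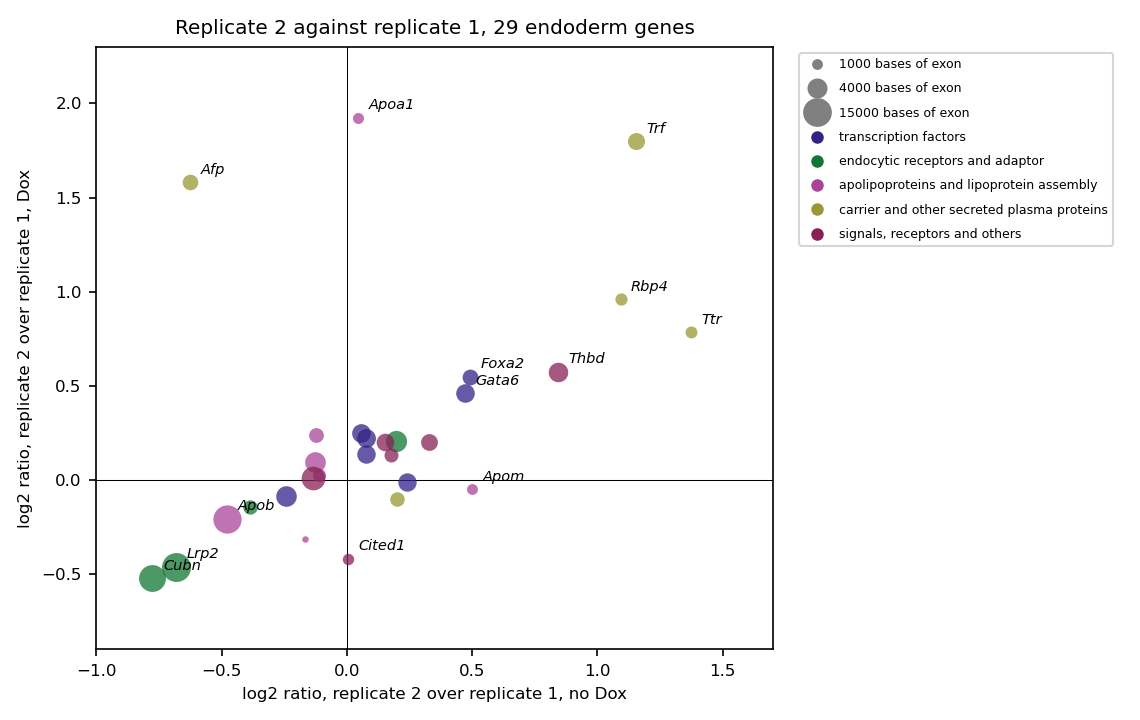
Log2 ratio of replicate 2 to replicate 1 without Dox (horizontal) and with Dox (vertical) for the 29 genes tested; colour gives the role and the size of a point grows with exon length. Rbp4, Ttr and Trf lie at the upper right, and the long genes Cubn and Lrp2 at the lower left.

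The counts per exon part, which the choice of genes did not use, showed that some annotated first exons were nearly empty. The sequences before the annotated starts of Hnf4a and Foxa2 are shown because the first counted part of each gene was nearly empty. These 2 genes were chosen after the counts were seen. Each is 250 bases before a start, from RefSeq in build GRCm38.p6, written 5′ to 3′ on the strand of the gene. The windows are chr2:163506607-163506856 and chr2:163546905-163547154 for Hnf4a on the plus strand, and chr2:148046970-148047219, chr2:148045949-148046198 and chr2:148045465-148045714 for Foxa2 on the minus strand. Capitals mark matches, on either strand, to the GATA letters AGATAA or AGATAG or TGATAA or TGATAG, to the HNF1 letters GTTAAT, or to TATAAA.
Hnf4a upstream start: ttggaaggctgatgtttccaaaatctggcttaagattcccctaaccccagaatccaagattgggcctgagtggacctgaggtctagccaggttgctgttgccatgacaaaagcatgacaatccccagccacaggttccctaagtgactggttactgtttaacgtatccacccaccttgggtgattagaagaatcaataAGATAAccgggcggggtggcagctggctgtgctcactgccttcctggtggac
Hnf4a downstream start: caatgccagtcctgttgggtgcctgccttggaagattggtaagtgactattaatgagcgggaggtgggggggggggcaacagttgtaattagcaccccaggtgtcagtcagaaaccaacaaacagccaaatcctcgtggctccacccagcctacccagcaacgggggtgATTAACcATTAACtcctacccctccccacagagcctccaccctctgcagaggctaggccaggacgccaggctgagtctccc
Foxa2 most upstream start: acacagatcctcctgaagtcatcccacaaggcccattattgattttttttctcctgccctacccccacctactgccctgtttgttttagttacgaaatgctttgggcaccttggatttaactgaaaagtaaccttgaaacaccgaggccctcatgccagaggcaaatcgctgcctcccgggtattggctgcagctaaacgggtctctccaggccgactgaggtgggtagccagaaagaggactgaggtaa
Foxa2 middle start: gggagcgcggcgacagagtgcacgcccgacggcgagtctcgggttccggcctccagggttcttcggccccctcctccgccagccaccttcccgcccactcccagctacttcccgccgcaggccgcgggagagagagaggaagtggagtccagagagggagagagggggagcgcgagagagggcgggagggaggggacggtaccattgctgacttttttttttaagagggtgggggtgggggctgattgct
Foxa2 most downstream start: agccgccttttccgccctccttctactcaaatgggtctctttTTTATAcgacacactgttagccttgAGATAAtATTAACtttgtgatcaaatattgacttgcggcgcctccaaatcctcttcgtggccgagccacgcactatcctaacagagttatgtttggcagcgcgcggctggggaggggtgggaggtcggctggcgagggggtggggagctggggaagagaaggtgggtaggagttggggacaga

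The part of Hnf4a that holds the first exon of the downstream start (232 bases) had 0 counts in both no Dox libraries and 1 and 0 counts in the Dox libraries, 1 of 2519 counts of the gene. The 8 middle parts together had 756 counts and the last part 1762. Per kb the middle parts stood at 5.57 and 3.32 CPM without Dox, against 5.46 and 3.86 CPM with Dox. Transcripts of Hnf4a from the downstream start carry that first exon, while those from the upstream start use another exon that is not in the counted unit, so the upstream start itself has no counts of its own here. The upstream window holds 1 GATA match and the downstream window 2 matches to the HNF1 letters.

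In Foxa2 the part nearest the 5′ end (110 bases), which follows the most upstream start, had 4 of 8581 counts. The next part (70 bases) had 196 and the last part 8381. Per kb these came to 0.208, 19.1 and 29.2 CPM, so the first exon of the most upstream start was at 0.902% of the density of the whole gene. The window of the most downstream start is the 1 Foxa2 window with matches, 1 each to GATA, the HNF1 letters and TATAAA. The positions of the middle and most downstream starts lie in no counted part. The counts therefore do not show whether either of these starts was used. The first counted parts of Foxa2 and Hnf4a were nearly empty in all 4 libraries, with and without Dox.

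Sox17 and Dab2 also had thin 5′ parts. In Sox17 the 3 parts nearest the 5′ end (1022 bases) held 264 counts, 2.01% of the gene, at 1.77 CPM per kb against 43.7 in the other 2 parts. In Dab2 the first part had 0 of 103948 counts, and the second had 1491, but the parts of Dab2 could not be matched one by one to annotated exons. In Pth1r the 3 parts nearest the 5′ end had 174 of 78811 counts, 0.221%. Over the 6937 genes the 5′ part had a median density of 0.343 times that of its gene, 5.39% of genes were under 5% of it, and 1.77% had 0 counts there. In Gata4 and Sox7 the 5′ part stood at 50.9% and 52.5% of the density of the gene.

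**Figure D5:**
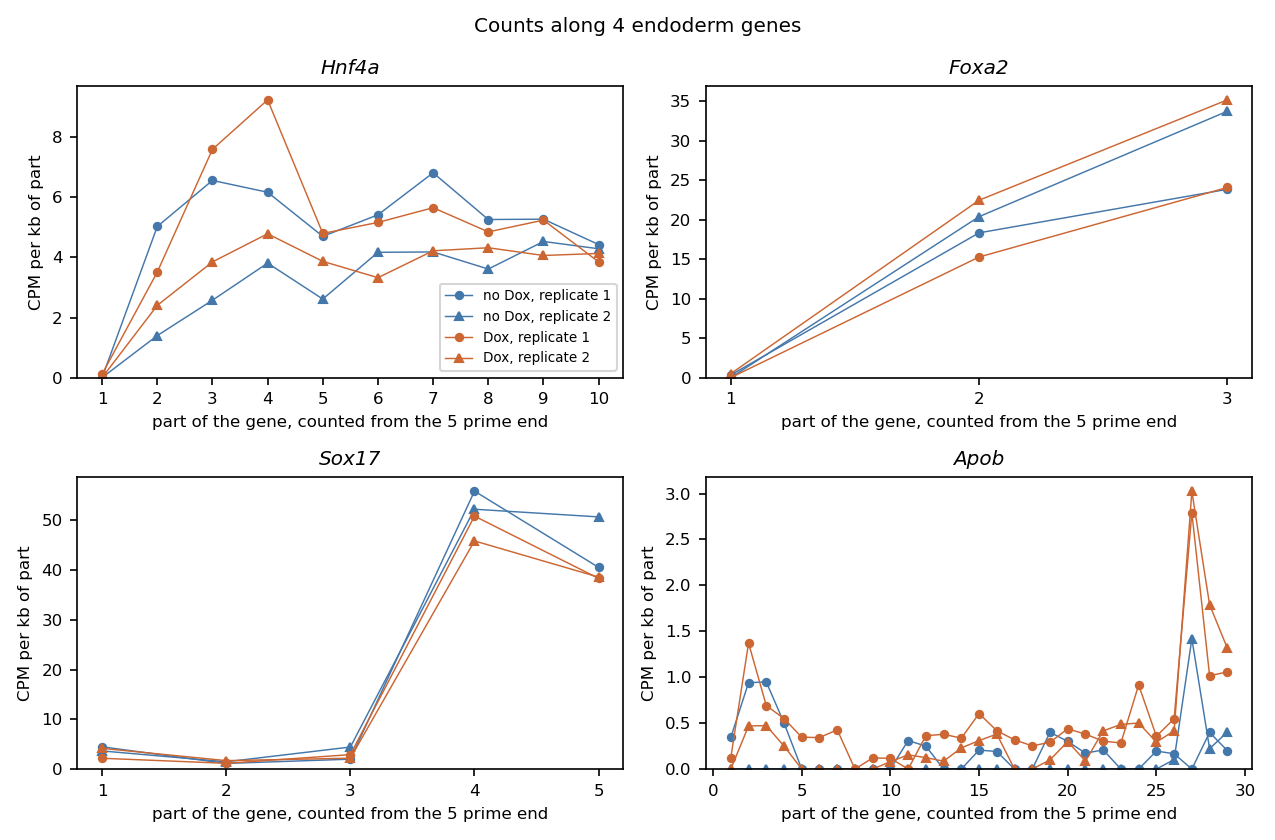
CPM per kb of each part, ordered from the 5′ end, in Hnf4a, Foxa2, Sox17 and Apob; lines join the parts of 1 library, blue without and orange with Dox, circles replicate 1 and triangles replicate 2. The first parts of Hnf4a and Foxa2 lie near 0 in all 4 libraries, and the highest values of Apob lie in its last 4 parts in the Dox libraries.

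The 2 called members were followed along their parts. In Apob, parts 26 to 29 held 84.9% of counts, and stood at 0.176 and 0.179 CPM per kb without Dox and at 0.681 and 0.645 with Dox. Parts 1 to 25 had 19 and 0 counts without Dox and 57 and 43 with Dox, so no Dox replicate 2 had no count over 4347 bases. In Vtn, parts 3 to 8 had 106 and 119 counts without Dox and 58 and 81 with Dox, in libraries of larger totals with Dox, and parts 1 and 2 had 19 and 10 without and 3 and 2 with Dox. Both stretches of Vtn were thus lower in CPM with Dox, and both stretches of Apob were higher in their group means.

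Promoter windows of 250 bases were found for 22 members, 34 windows in all, beside 32851 windows of all genes. Letters of a FOXA site (TGTTTAC or TATTTAC or TGTTTGC) were in 8 of the 34 (23.5%), beside 9.73% of all windows. The HNF1 letters were in 6 (17.6%), beside 6.43%, HNF4 letters (GGGGTCA) in 4 (11.8%), beside 3.48%, and TATAAA in 9 (26.5%), beside 12.4%. GATA letters were in 5 (14.7%), beside 26.5%, and SOX letters (ACAATGG or ACAAAGG) in 1 (2.94%), beside 7.92%. Of the 8 windows with FOXA letters 6 belonged to the 14 windows of members under 10 CPM per kb and 2 to the 20 windows of members at or above it. Both strands were searched, windows of 1 gene are not independent, and a match is a description of the letters.

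Some members lie over other annotated genes, which limits their values. Cubn overlaps Gm13270 over 368 bases of exon, Apoa4 overlaps Gm10680 over 632, Gata6 overlaps 1010001N08Rik over 93 and Mttp overlaps Gm43691 over 132, all on the opposite strand. Whether counting used strand is not given in the sources used here, so reads of such pairs cannot be told apart.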

How the data were processed

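Bulk RNA was sequenced from 4 libraries, 2 per group, made with the Illumina TruSeq protocol per the labels' protocols. Groups and replicate numbers came from the sample titles, and the design text calls the replicates biological. The deposited values are raw counts per numbered part of each RefSeq gene unit (208825 parts, 21822 units). TopHat and mm9 are named in the submitters' processing notes, and the counting tool, its annotation and the use of strand were not given in the sources used here. A read over several parts may be counted in each. The 4 entries that name no gene stayed out; reads outside genes were 13.6% to 15.8% and ambiguous reads 0.41% to 0.52% of counts.

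Parts were summed per gene. Of 27601 identifiers 97.1% matched the RefSeq gene table of GRCm38.p6 or GENCODE M21, 496 units had no symbol, and 21099 units (96.7%) had an exon length from GENCODE M21. Parts were paired with exons by order where their numbers were equal. No coordinates were converted. The Dox comparison over all genes used edgeR 4.0.16 under R 4.3.3 (quasi-likelihood F test, robust, TMM, filterByExpr, Benjamini-Hochberg at 0.05 over all genes; biological coefficient of variation 0.148), and checked on simulated counts. DESeq2 1.42.0 and limma 3.58.1 gave alternatives.

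The members and lists were chosen with earlier results of these data known. Values in every library are given for each member with a mean of at least 5 CPM and each called member, the rest by range. Of other lists up to 4 genes with the largest mean, or called genes, could be named; Alb, Pecam1, Pax6, Tubb3, Lamb1 and Mfge8 were named after their values were seen. Sequences were planned for the highest member of each role group and are shown instead for 2 genes whose parts differ; sums over groups of parts, the ratios of medians per library and the marker sum without Sox2 were also chosen after seeing the data. The 9-letter HNF4 sites that were planned were not searched.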

Additional observations from a re-analysis of the deposited data

How the results depend on the processing

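Apob kept its call, higher with Dox, and Vtn its call, lower, except with only genes of a mean of 5 CPM, where neither was tested, and when a gene was counted by its largest part alone; both settings left 0 members higher and 0 lower. With the largest part the log2 fold change was 1.83 for Apob and -1.34 for Vtn, beside 1.87 and -1.64. Of 336 member values under 12 alternatives, 313 moved by no more than the SE and 23 by more, and the median log2 fold change of the members ran from -0.14 to 0.05. Without a replicate, 1 member was higher each time and 1 to 2 were lower, Cited1 being the second without Dox replicate 1. DESeq2 called 2 members lower, with Cited1. Genes called higher were 295 with no filter, 104 with a mean of 5 CPM, 398 by DESeq2 and 276 to 283 without a replicate, beside 175. Genes called lower were 16 with library totals as scaling, 46 with no filter, 4 with a mean of 5 CPM, 14 from the largest part, 113 by DESeq2 and 22 to 124 without a replicate, beside 8. The cause was not tested. With a replicate left out, the lone library of its group is taken to vary like the other group. The ratio of the member median to that of neurons, as the mean over the 4 libraries, was 0.883 without length and 0.330 from the largest part (25 members), and to that of progenitors 0.299 from the largest part, beside 1.76 and 1.04. The largest-part ratios leave out members whose parts had no matched length, so they also differ in the set of genes.

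With the replicate number as a block, 1047 genes were called higher and 869 lower, and among members 2 were higher (Apob and Gata6) and 3 lower (Vtn, Cubn and Cited1). Same-numbered libraries deviated together (correlation 0.52 over all genes), but with 2 pairs and no label tying them the samples share only a number.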
